A study of Mus musculus with 4 samples.

Results

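Dense runs were stretches of RNA along which called peaks of DHX9 binding followed one another at short distance. A run was defined as 10 or more autosomal peaks (chromosomes 1 to 19) of a single strand in which each gap between neighbouring midpoints was at most 500 bases. The rule found 292 runs. They held 4021 of the 42236 autosomal peaks (9.52%), out of 43106 peaks in the whole list. The binding was mapped by FLASH, a crosslinking and immunoprecipitation method that keeps the strand of the RNA. The material was mouse neural progenitor cells, which had been differentiated from male embryonic stem cells (line WT26, C57BL/6x129sV). One group had 2 libraries pulled down with an antibody to DHX9, and the other had 2 libraries pulled down with rabbit IgG, each with biological replicates A and B from the same line. The peaks were deposited as a single list for the 4 libraries. No value per library, no read depth and no replicate error was therefore known. The positions of the peaks chose the runs, so all values below are descriptions of that list and carry no test.

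DHX9, also called RNA helicase A, is a helicase that unwinds double-stranded RNA and acts largely in the nucleus. Unspliced transcripts contain long introns, and repeats that lie in inverted order within them can pair into double-stranded stretches. A peak is a stretch of RNA that the authors' peak caller reported for the DHX9 pull-down; its settings, and how it used the IgG libraries, were not known. RNA levels were not measured, so amount of RNA and extent of binding cannot be told apart in any count below. Counts for marker genes were set beside the culture's label. At least 1 peak anywhere in the gene was carried by 9 of 15 neural progenitor markers and 0 of 6 pluripotency markers. The count was 1 of 7 for mature neuron markers and 1 of 7 for astrocyte and oligodendrocyte markers. For mesoderm, endoderm and fibroblast markers it was 3 of 7. The share of all genes with a peak is not given beside these counts. The lists were also chosen with earlier results of these data known. The counts therefore describe the lists and do not test the label.

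In 2 of the 292 runs a microRNA hairpin lay wholly or partly under peaks, and these hairpins are shown to mark which of their bases the peaks held. Of 919 autosomal microRNA hairpins in the RefSeq table (GRCm38.p6, which is mm10), 3 lay in a run on the same strand (0.326%), and 41 were overlapped by any peak (4.46%). A run of 17 peaks over 5368 bases in Spaca6 (chr17:17828743-17834110, plus strand) held Mirlet7e and Mir125a, together with the mature sequences of Mir99b. The hairpin of Mir99b is not among the 3 counted, although both its mature sequences lay in the run. Peak 5 of that run, 331 bases long, covered the whole Mirlet7e hairpin and both mature arms of Mir99b. Peak 6, 246 bases long, covered 67 of the 68 bases of the Mir125a hairpin. In Mir100hg, the long noncoding host gene of another such cluster, a run of 12 peaks (chr9:41581224-41584567, plus strand) held Mir125b-1. Only 40 of the 77 bases of that hairpin lay in a peak, and they included the 5p arm and none of the 3p arm. The hairpins are given 5′ to 3′, with the bases inside peaks in capitals.
Mirlet7e hairpin: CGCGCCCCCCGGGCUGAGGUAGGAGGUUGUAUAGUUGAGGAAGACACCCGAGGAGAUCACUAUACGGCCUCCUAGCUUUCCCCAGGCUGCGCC
Mir125a hairpin: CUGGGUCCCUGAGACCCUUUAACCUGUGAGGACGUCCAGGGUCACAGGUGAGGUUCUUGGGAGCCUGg
Mir125b-1 hairpin: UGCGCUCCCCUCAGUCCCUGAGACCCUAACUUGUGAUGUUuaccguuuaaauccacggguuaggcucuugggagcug

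The mature 5p arms from these runs fell into 3 seed groups, where the seed is bases 2 to 8 and is the part of a microRNA that pairs with its targets. In the lines below the seed is in capitals. The seed CCCUGAG was shared by miR-125a and miR-125b, which came from different chromosomes. A further run of 11 peaks on chromosome 16 (chr16:77573353-77575700, plus strand) ended 23.2 kb before Mir99a and 24.0 kb before Mirlet7c-1. Their mature forms share the seeds of miR-99b and let-7e and are shown beside them. The hairpins of Mir100 and Mirlet7a-2, also in the Mir100hg cluster, lay 49.7 kb and 44.4 kb from its runs and carried no peak.
miR-125a-5p: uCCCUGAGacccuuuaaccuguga
miR-125b-5p: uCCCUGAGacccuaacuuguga
let-7e-5p: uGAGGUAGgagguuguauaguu
let-7c-5p: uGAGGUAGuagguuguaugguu
miR-99b-5p: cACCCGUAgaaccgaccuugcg
miR-99a-5p: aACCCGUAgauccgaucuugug

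Most runs were short and close to the lower limit of the rule. The median run had 12 peaks (25th and 75th percentiles 11 and 14), and 223 of the 292 runs had 10 to 14. There were 27 runs with 20 or more peaks and 14 with 25 or more. The median length was 3566 bases, with a shortest run of 2194 and a longest of 12799 bases, and 49 runs were longer than 5 kb. Together the runs spanned 1150 kb. The plus strand carried 169 runs and the minus strand 123.

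**Figure D1:**
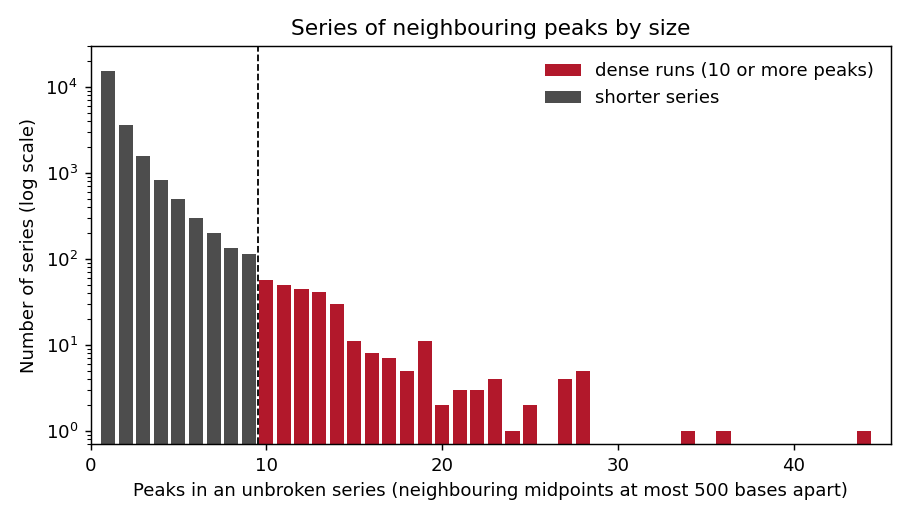
Number of unbroken series of neighbouring peaks (log scale) against the number of peaks in the series, for autosomal peaks, with the 292 dense runs in red right of the dashed line. There were 15244 single peaks, 113 series of 9 peaks, 57 of 10 and 1 each of 34, 36 and 44, and the step from 9 to 10 peaks was larger than those from 8 to 9 (133 to 113) and from 10 to 11 (57 to 50).

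Within a run, peaks lay almost side by side. The median gap between neighbouring midpoints was 283.5 bases (25th and 75th percentiles 220.5 and 360.5 over 3729 gaps), where the rule allowed no more than 500. Between the end of a peak and the start of the next lay a median of 78 bases. Neighbouring peaks overlapped in 58 of the 3729 cases (1.56%), and in a further 1303 they were separated by at most 50 bases. Peaks covered a median of 67.7% of a run. The covered share ranged from 47.9% to 90.2%, and the most covered run was one of 10 peaks in Ube2d2a.

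A run usually did not end in empty sequence. At 412 of the 584 run ends (70.5%) the next peak of that strand lay no more than 1000 bases away, measured between midpoints. The median distance to that next peak was 677.5 bases. Only 43 ends had no further peak within 10 kb, and 4 runs had none within 10 kb at either end. Some runs followed each other closely: 20 runs were followed within 1000 bases by another run, and 42 within 5 kb.

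Series just inside and just outside the limit of 10 peaks were of similar make. The 57 runs of exactly 10 peaks had a median length of 3018 bases and a median covered share of 69.7%. The 113 series of 9 peaks, just outside the rule, had a median length of 2476 bases and a covered share of 66.0%. The shortest runs of 10 included those in Ppp2r2b (2194 bases) and Zfr (2291), and the longest lay in Eif4h (3586), Spred2 (3475) and Epn2 (3443). The shortest series of 9 lay in Eps15l1 (1766), Srcap (1841) and Arl8a (1847), and the longest in Airn (3378), Eif4g1 (3216) and Zkscan3 (3161).

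**Figure D2:**
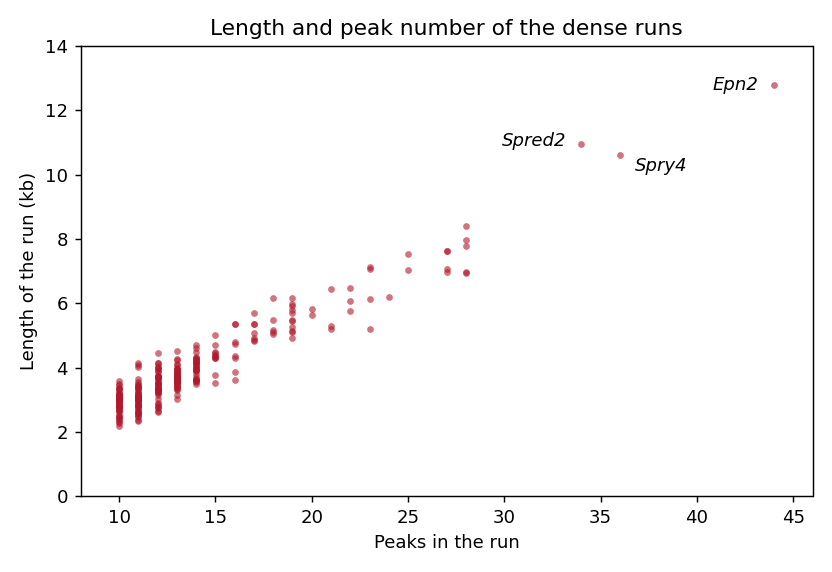
Length of each of the 292 runs in kb against its number of peaks, 1 point per run. Length followed peak number closely, and the runs of Epn2 (44 peaks, 12.8 kb), Spry4 (36 peaks, 10.6 kb) and Spred2 (34 peaks, 10.9 kb) lay apart from the rest, which had at most 28 peaks.

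The run with the most peaks lay in Epn2, which encodes an adaptor protein of clathrin-coated pits. It held 44 peaks over 12799 bases (chr11:61558571-61571369, minus strand), and its middle lay 14.7 kb after the start of the 63.8 kb gene. The next were in a pair of genes that encode inhibitors of receptor tyrosine kinase signalling. Spry4 had a run of 36 peaks over 10615 bases, which made up 70.3% of its 15.1 kb span. Spred2 had one of 34 peaks over 10947 bases, with its middle 7.77 kb after the start of a 99.6 kb gene. These 3 were the only runs longer than 10 kb.

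Runs of 28 peaks lay in 5 genes of unlike function. These were Nfib, a nuclear factor I transcription factor gene, Sntb2, which encodes a syntrophin of the dystrophin complex, and Gnb1, which encodes a G protein beta subunit. The others were Rbm25, a splicing regulator gene, and Abhd17b, which encodes an enzyme that removes palmitate from proteins. The run in Nfib also lay in the noncoding gene 2310067E19Rik, and neither gene's strand was given. The second run of Maml2 among the 10 longest had 23 peaks over 7118 bases. Runs of 27 peaks lay in Nfia, in the Notch coactivator gene Maml2, in Nfat5, which encodes a transcription factor of the osmotic stress response, and in the glutamate transporter gene Slc1a3. The remaining 3 of the 15 runs with the most peaks were a run of 25 in Nfia, one of 25 in Npas3 and one of 24 in Ptn, which encodes the growth factor pleiotrophin.

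The runs with most peaks per kb were mostly short ones. The highest density, 4.68 peaks per kb, was that of the run of 11 peaks on chromosome 16 near Mir99a. Runs in the phosphatase gene Ctdsp2 (4.64 per kb), Zfp276 (4.56), Ppp2r2b (4.56) and Map4k4 (4.52) followed, with 10 to 12 peaks each. The run of 23 peaks in Map4k4 was the only one of the 10 densest with more than 16 peaks and had 4.42 per kb. Over all runs the density ranged narrowly, from 2.66 to 4.68 peaks per kb with a median of 3.49.

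Nearly all runs lay in an annotated gene on the gene's own strand. A gene was taken as the host of a run when its span held the run's midpoint and its strand, where given, was that of the run. Such a host was found for 286 of the 292 runs (97.9%), and they came from 183 genes. The host was protein-coding for 275 runs and a long noncoding RNA gene for 11. Protein-coding genes took precedence, so the 275 include the run counted under Kcnq1, which also lies in the noncoding gene Kcnq1ot1. That run is on the strand of Kcnq1ot1, and its position was taken along Kcnq1. Of 193 runs whose midpoint lay in exactly 1 gene of known strand, 192 were on that gene's strand. The exception was a run of 12 minus-strand peaks in Phykpl (chr11:51597685-51601822), whose middle lay 0.347 kb beyond the annotated end of the minus-strand gene Hnrnpab, which encodes an RNA-binding protein. For 75 runs the host's strand was not in the tables, and the strand of the peaks was used.

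No run contained a peak of the opposite strand (0 of 292). Taking 3 counts as the floor gives a share of up to 1.03% of runs. That figure treats the runs as independent, although 150 of the 286 hosted runs lay in 47 genes with more than 1 run. Within 5 kb of a run's edges the opposite strand had a peak for 1 run, that of Skp1, which encodes a subunit of ubiquitin ligases. Counted per peak, 11 of the 4021 run peaks (0.274%) had an opposite-strand peak within 5 kb. All 11 belonged to that run of Skp1, beside 1 opposite-strand peak, so they stand for a single place and are not independent. The share was 342 of 38215 (0.895%) for peaks outside runs and 42 of 2454 (1.71%) for isolated peaks, which have no neighbour of their strand within 10 kb.

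Most host genes held a single run. Of the 183 host genes, 136 held 1 run and 47 held more, and those 47 accounted for 150 of the 286 hosted runs. The 8 genes with 5 or more held 58. Npas3, a neural transcription factor gene, came first with 13 runs and 183 run peaks of its 661 peaks (27.7%). Maml2 had 9 runs with 147 of 374 peaks (39.3%). Zeb1, a zinc finger transcription factor gene, had 8 runs with 115 of 287 (40.1%), Nfia 7 with 121 of 339 (35.7%) and the kinase gene Map4k4 6 with 84 of 267 (31.5%). The imprinted noncoding RNA Airn had 5 with 74 of 195 peaks (37.9%). Hip1, which encodes a clathrin adaptor, also had 5, with 64 of 140 (45.7%), and so did the metabotropic glutamate receptor gene Grm5, with 62 of 286 (21.7%). Rere, a transcriptional corepressor gene, had 4.

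The arrangement of runs differed among these genes. In Npas3, 8 of the 13 runs followed one another from 5.96 to 45.8 kb after the start of the 824 kb gene. Breaks of only 178 to 480 bases between peak edges separated 5 neighbouring pairs of them. The span of Gm51419, a predicted noncoding gene of that strand, held the midpoints of all 8. In Nfia the midpoints of the 7 runs sat between 38.5% and 50.2% of the span. In Zeb1 they were spread from 1.95% to 58.6% and in Map4k4 from 1.54% to 86.5%. Airn carried its 5 runs at 11.2 to 47.4% of its span, 2 of them where it overlaps Igf2r, a gene on the opposite strand. Hip1 differed from these in position, with all 5 runs between 48.6% and 93.3%.

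**Figure D3:**
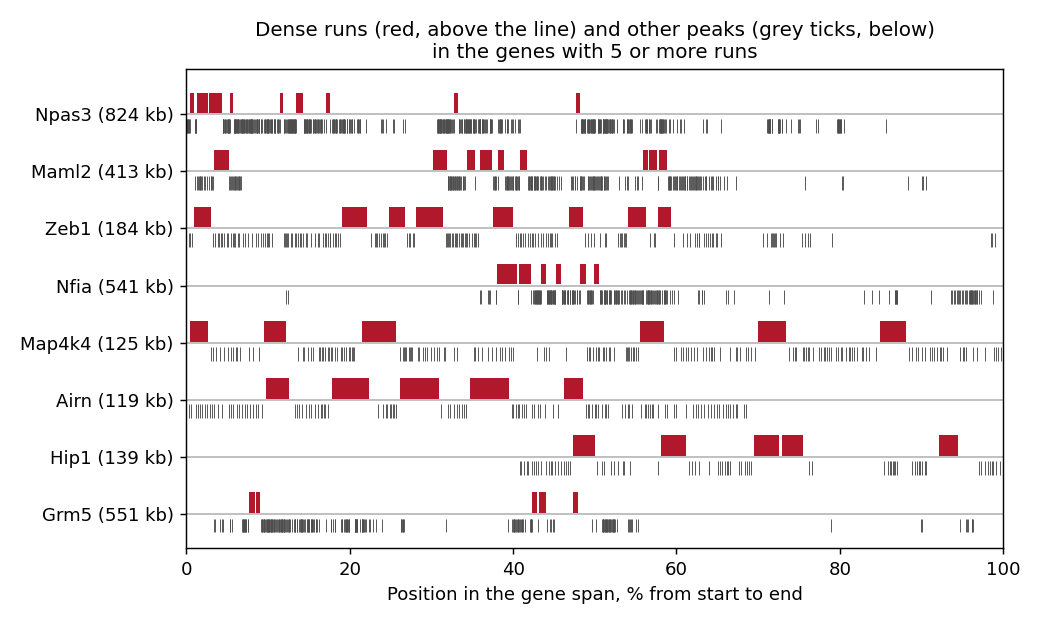
Position of the runs (red boxes, drawn to scale above each line) and of the other peaks of the gene's strand (grey ticks below) in the 8 genes with 5 or more runs, as percent of the gene span from start to end. In Npas3 the runs crowded at the start, in Nfia they lay between 38.5% and 50.2%, and in Hip1 they lay between 48.6% and 93.3%.

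By share of the span, short genes led. Among genes with at least 2 runs, Igfbp2 had the largest share, with 37.8% of its 28.0 kb in 3 runs of 14, 13 and 11 peaks. It encodes a binding protein for insulin-like growth factors. Epn2 (31.2%), the D-type cyclin gene Ccnd2 (30.6%) and Xpo1 (23.5%), which encodes the main nuclear export receptor, came next. Cbx5, which encodes heterochromatin protein HP1 alpha, had 22.4% and Caprin1, an RNA-binding protein gene, 20.7%. Slc1a3 had 19.96% and Pafah1b1, which encodes the dynein regulator LIS1, 19.3%, while Airn had 19.1% and Map4k4 18.6%. Over all host genes the median share was 8.60%.

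Genes with more peaks more often held a run, but not all did. Each peak was counted under 1 host gene. Of genes with 10 to 19 such peaks, 19 of 537 (3.54%) held a run. Of those with 20 to 49 peaks it was 82 of 337 (24.3%), of those with 50 to 99 it was 44 of 94 (46.8%), and of those with 100 or more it was 38 of 45 (84.4%). Peak number and runs were counted from the same peaks, so the rise is given as a description. Genes with a run had the lower median span in 3 of these 4 classes: among genes with 20 to 49 peaks the median span was 35.2 kb with a run and 72.6 kb without. Genes with 100 or more peaks had a median span of 229 kb with a run and 222 kb without.

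Some genes with very many peaks held few or none of them in runs. The examples here were chosen after their values were seen. Adgrb3, which encodes an adhesion receptor, had 10 of 307 peaks in a run (3.26%), and Grip1, a scaffold gene, 11 of 205 (5.37%). Stard13 had 168 peaks, Lsamp 138 and Kcnd3 127 with no run, and in each the longest series had 9 peaks. At the other end, Clasp2, Atn1 and Mapk8ip3 had all of their 15, 10 and 10 peaks in a single run, and Spry4 had 36 of 42 (85.7%). The median host gene had 39.3% of its peaks in runs.

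Runs lay more often in the first part of their genes. The middle of the median run was at 27.3% of the host's span (25th and 75th percentiles 11.9% and 49.3%), 20.7 kb after the start and 62.5 kb before the end. In all, 216 of 286 runs (75.5%) lay before the middle of the gene. Only 23 (8.04%) lay in the last 25% of the span. Peaks in runs had a median position of 26.1%, against 38.7% for peaks outside runs and 48.7% for isolated peaks. The last 10% of the span held 1.88% of run peaks, 5.91% of the other peaks and 9.20% of isolated peaks.

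**Figure D4:**
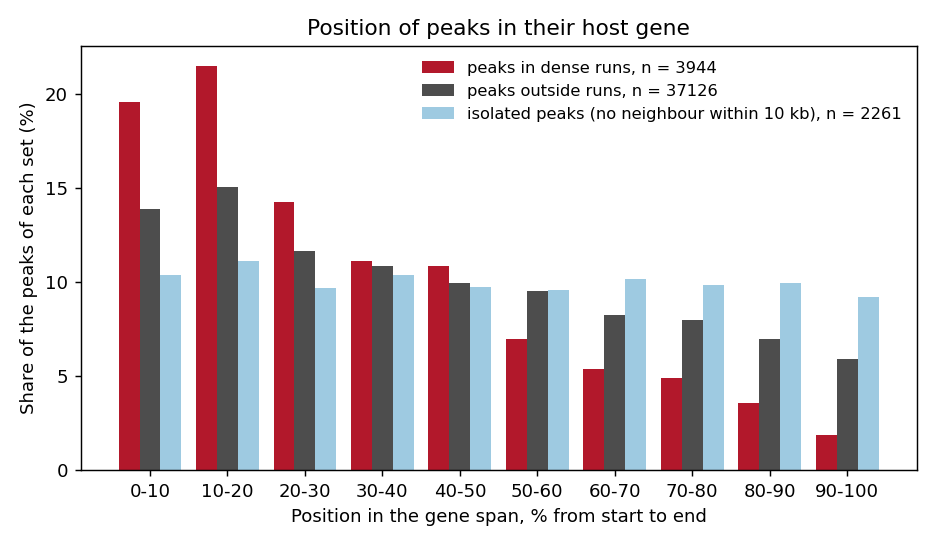
Share of peaks in each of 10 equal bins of the host gene's span, for 3944 peaks in dense runs (red), 37126 peaks outside runs (grey) and 2261 isolated peaks (blue). Of the run peaks, 21.5% lay in the second bin and 1.88% in the last, while isolated peaks were spread almost evenly, from 9.20% to 11.1% in each.

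The gene's end in particular was poor in runs. Within 5 kb of the annotated end lay 126 of 3944 run peaks (3.19%), against 3209 of 37126 peaks outside runs (8.64%) and 301 of 2261 isolated peaks (13.3%). Within 5 kb of the start lay 9.38% of run peaks, against 12.6% of the peaks outside runs and 15.1% of the isolated ones. The shortest run spanned 2194 bases, and the bearing of run length on these shares was not tested. Split by the size of the series that a peak belonged to, the share near the end was between 8.08% and 9.15% for series of 1 to 9 peaks. It was 3.42% for series of 10 to 14 and 2.77% for 15 to 44. The median position moved in the same way, lying between 35.5% and 40.1% for series of up to 9 peaks, at 30.1% for 10 to 14 and at 21.1% for 15 to 44. Series right at the limit did not show this step. Counted per series with a host gene, the median position was 37.5% for runs of exactly 10 peaks, against 36.7% for series of 9 and 34.4% for series of 8. The share of series within 5 kb of the gene end was 5.36% for 10 peaks, 13.6% for 9 and 6.15% for 8.

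**Figure D5:**
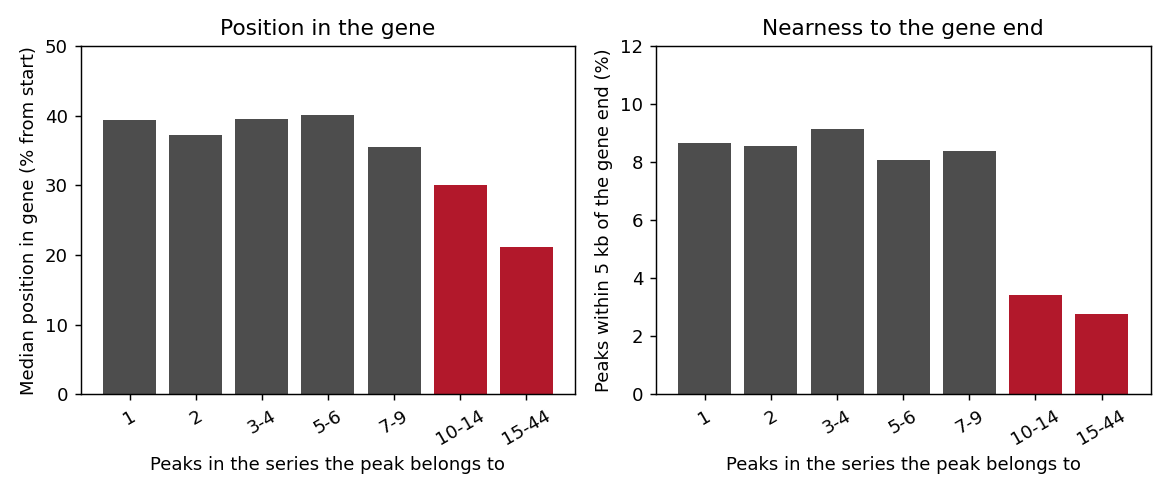
Median position in the gene (left, percent of the span from the start) and share of peaks within 5 kb of the gene end (right), by the number of peaks in the series a peak belongs to. Runs are in red. Both values were lower for the red bars (30.1% and 21.1% on the left, 3.42% and 2.77% on the right) than for any shorter class.

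Peaks of the same gene were then set side by side. In 170 host genes with at least 5 peaks outside runs, the run peaks had the lower median position in 114 (67.1%). The median over those genes was 26.8% for run peaks and 37.8% for the other peaks. Among the 123 of these genes with exactly 1 run, the run lay nearer the start in 81. Grm5 was one of the genes in which this was not so, with its run peaks at a median of 42.7% and its other peaks at 19.3%. The median lay before the middle in hosts of every length class. By length class of the host, the median run lay at 34.4% in the shortest class (11.1 to 41.6 kb, 72 runs) and 23.0% in the next (71 runs). It lay at 21.6% in the third (71 runs) and 32.05% in the longest (239 to 1106 kb, 72 runs).

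The 20 runs with their middle within 5 kb of the gene start came from genes of mixed kind. They included Hnrnpc, which encodes a pre-mRNA binding protein (1.93 kb), Map4k4 (1.93 kb), Srsf4, a splicing factor gene (2.22 kb), and Sntb2 (2.87 kb). The ubiquitin ligase gene Nedd4 (3.11 kb), Zeb1 (3.59 kb) and Top2a, which encodes a DNA topoisomerase (4.63 kb), were also among them. The 9 within 5 kb of the gene end were those of A830082K12Rik (2.10 kb), Slc1a3 (2.43 kb), Ccnd2 (2.65 kb), Eif4h (3.10 kb), Ube2d2a (3.22 kb), Chd4 (3.57 kb), Zfp276 (3.85 kb), Epn2 (4.24 kb) and Igfbp2 (4.27 kb). These genes were chosen by position, after their values were seen.

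Annotated start sites themselves were seldom inside a run. The RefSeq table gave 31396 autosomal windows from 250 bases before to 50 bases after an annotated start, which can lie inside a gene's span. Of these, 99 (0.315%) were overlapped by any same-strand peak and 5 (0.0159%) by a run. The 5 belonged to Dgkz, Tcf25, Rbm25, Spaca6 and Gm51419. The windows of Dgkz and Tcf25 are shown because they differ in how the run met the start, with bases inside peaks in capitals. In Dgkz, a diacylglycerol kinase gene, the run of 18 peaks passed through an internal start (chr2:91950299-91950598, minus strand), and 200 of the 300 bases lay in peaks. In Tcf25 the start was also internal, at base 123373711, where the gene's span began at base 123370772. The run of 11 peaks began only at that internal start, from base 123373714 (window chr8:123373461-123373760, plus strand). There, 47 of the bases lay in peaks. The starts of Rbm25 (base 83635710) and Spaca6 (base 17830975) likewise lay inside their spans, which began at bases 83632208 and 17826085. The GC content of the 5 windows was 61.7% in Dgkz, 70.3% in Tcf25, 71.3% in Gm51419, 55% in Spaca6 and 35% in Rbm25, where the median of all windows was 53%.
Dgkz: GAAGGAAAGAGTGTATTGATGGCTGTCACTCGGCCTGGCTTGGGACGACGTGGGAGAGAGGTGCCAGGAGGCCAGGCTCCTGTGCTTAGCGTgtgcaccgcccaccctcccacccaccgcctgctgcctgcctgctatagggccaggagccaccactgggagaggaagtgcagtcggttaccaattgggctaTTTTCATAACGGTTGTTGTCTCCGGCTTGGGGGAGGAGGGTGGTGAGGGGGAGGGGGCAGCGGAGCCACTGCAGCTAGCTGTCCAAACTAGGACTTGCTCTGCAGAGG
Tcf25: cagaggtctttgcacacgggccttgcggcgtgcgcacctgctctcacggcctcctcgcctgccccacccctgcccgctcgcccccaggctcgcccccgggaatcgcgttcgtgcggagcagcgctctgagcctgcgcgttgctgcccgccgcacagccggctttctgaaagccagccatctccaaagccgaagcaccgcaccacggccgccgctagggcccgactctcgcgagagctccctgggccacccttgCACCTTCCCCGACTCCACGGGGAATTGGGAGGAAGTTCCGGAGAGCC

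The peaks that made up runs were longer than others. Their median length was 178 bases (25th and 75th percentiles 133 and 237), against 151 (121 and 197) for peaks outside runs and 135 (110 and 168) for isolated peaks. Peaks of 300 bases or more made up 11.1% of run peaks, 6.82% of the others and 3.79% of isolated peaks. Median length grew with the size of the series, at 146 bases for single peaks, 155 for series of 3 to 4, 165 for 7 to 9, 176 for 10 to 14 and 183 for 15 to 44. Within the 170 host genes with enough peaks of both kinds, run peaks were the longer in 118 (69.4%), with a median over genes of 173.5 bases for run peaks and 155 for the others. The single longest peak was not in a run: the highest length was 597 bases in runs and 981 outside.

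By function, runs were counted in 15 gene lists. Of 20665 autosomal protein-coding genes, 178 held a run (0.861%), and of 12408 long noncoding genes, 14 did (0.113%). These shares were taken over all such genes, with or without a peak, whereas most members of several lists had a peak. Among genes with 10 to 19 peaks 3.54% held a run, with 20 to 49 peaks 24.3%, and with 100 or more 84.4%. The share of all genes with a peak is not given beside the list counts. Of the chromatin regulators, 27 of 32 members had a peak and 9 of 32 held a run. Among the latter were Setd5 (2 runs), Ehmt1, Chd2, Dnmt3a, Chd4, Arid1a, Crebbp and Hdac1. Ehmt1, which encodes a histone methyltransferase, had the largest of these runs with 18 peaks. Among neural adhesion and synaptic genes 26 of 32 had a peak and 8 of 32 held a run. Grm5 led with 62 run peaks, followed by Kirrel3 (24), Pcdh9 (19) and Adgrl1 (14). In the list of neural transcription factors and Notch genes 25 of 38 had a peak and 8 of 38 held a run. Npas3 (183), Maml2 (147), Nfia (121) and Zeb1 (115) had the most run peaks.

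Splicing and RNA processing genes held a run in 7 of 39. Rbm25 had 28 run peaks, Luc7l2 26, Rbm5 19 and Tra2a 15, and all 4 encode proteins that act in splicing. In this list 37 of 39 members had a peak, so most members with a peak had no run. Of 26 receptor tyrosine kinase signalling genes, 21 had a peak and 4 held a run: Spred2 (55 run peaks), Igfbp2 (38), Spry4 (36) and the adaptor gene Gab2 (11). Of 20 genes for double-stranded RNA binding and editing, 12 had a peak and 3 held a run, among them Son (11 run peaks) and Zfr (10). Dhx9 itself had no run, but it had 32 peaks and its longest series was of 9, just below the limit. Neural progenitor markers held a run in 3 of 15, namely Nfia, Slc1a3 (55) and Nfib (51).

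The remaining lists had few runs or none. Cell cycle and replication genes had 2 of 28, Ccnd2 (28 run peaks) and Top2a (12), and cytoskeletal genes 2 of 26, Macf1 (13) and the actin bundling gene Fscn1 (11). Nuclear long noncoding genes had 2 of 19, Airn (74) and Kcnq1ot1 (14). The run of Kcnq1ot1 also lies in Kcnq1, whose strand was not given, but its minus strand is that of Kcnq1ot1. No run lay in 20 ribosomal protein genes, 11 of which had a peak. None lay in the markers of mature neurons (7 genes), astrocytes and oligodendrocytes (7), mesoderm, endoderm and fibroblasts (7) or pluripotency (6). The lists were not matched on gene length, number of peaks or RNA level, so their shares describe the lists and are not set apart from other genes by a test.

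The 6 runs without a host on their strand lay outside or beside annotated genes, with distances taken from the run's midpoint. In addition to that beside Hnrnpab, a run of 22 peaks lay 4.22 kb past the end of Mcl1, an apoptosis inhibitor gene, one of 15 lay 7.41 kb past the end of the RNA-binding protein gene Qk, and that near Mir99a lay 16.1 kb past the end of Mir99ahg. All 4 were on the strand of those genes. One of 10 lay 1.96 kb from Gnasas1, an antisense RNA of the imprinted Gnas locus, whose strand was not given.

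Runs were found on every autosome but in unequal number. Chromosome 11 had the most (33), followed by chromosomes 1 (27), 4 (26) and 5 (26), and chromosomes 10 and 14 had 3 each. As a share of the chromosome's peaks, runs held the most on chromosome 18 (18.7%), where Zeb1 alone had 8 of 18 runs, and the least on chromosome 10 (1.98%).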

How the data were processed

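The authors deposited 1 peak list for the 4 libraries, made with PEAKachu per the file's source column, with a chromosome, start, end and strand per peak and an empty score; the peak positions are the only other measurement used. The submitters' processing notes name Bowtie2 2.2.6 and 2 builds, hg19 and mm10; positions were read as mm10. The sources used here give no caller settings or thresholds and do not say how multiply mapping reads were treated, or how far wide signal was split into neighbouring peaks.

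Runs were built with Python 3.11.15 and pandas 2.3.3, after a check on simulated peaks in which every planted run was found. Gene spans, strands, start windows and microRNAs came from RefSeq tables (GRCm38.p6, 47042 autosomal genes). Where several genes held a midpoint, the host was a protein-coding gene before others, then one of known strand, then the longest. Exons and introns were not used here. The members, lists and rules were chosen with earlier results of these data known. Named were the genes of the 15 runs with the most peaks, the 10 longest and the 10 densest runs, the 10 genes with the most runs and the 10 with the largest share of span, up to 4 members a list, and the 3 shortest and 3 longest series at the threshold; others were chosen after their values were seen. Some genes that this rule names are not reported here.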

Additional observations from a re-analysis of the deposited data

Results flagged for a closer look

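The rule for runs was limited to the autosomes, and the same rule applied to the peaks left aside found 4 further runs on the X chromosome, a signal in data that the comparisons above do not use. They lay in Stag2 (12 peaks), a cohesin subunit gene, in Gpm6b (12 peaks), which encodes a neural membrane glycoprotein, in the overlap of Gpm6b and Ofd1 (11 peaks), and in Lamp2 (11 peaks), a lysosomal membrane protein gene. They held 46 of the 771 peaks of the X (5.97%). The Y chromosome had 1 run, of 11 peaks in Uty, among 41 peaks. The mitochondrial genome had none, its longest series being 8 peaks. The list gives no level per library for these positions.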

How the results depend on the processing

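The runs depend strongly on the rule that makes them. Their number was 292 as reported, 5 with gaps of at most 300 bases, 749 with 1000, 538 with at least 8 peaks, 69 with at least 15, 556 with gaps measured from end to start, 30 after merging peaks within 50 bases and 25 with the longer peaks only. In the same order of settings, they held 0.128%, 31.7%, 14.4%, 3.33%, 21.8%, 0.916% and 1.32% of the peaks used, where 9.52% was reported. The genes with a run numbered 5, 518, 359, 57, 392, 28 and 24, where 199 (overlapping genes all counted) were reported. The median run length was 2371 bases with gaps of 300 and 5368 bases with at least 15 peaks. The median share of a gene's span was 2.23% with gaps of 300, 13.9% with 1000, 2.76% after merging and 3.65% with the longer peaks. Lists with a run numbered 3 with gaps of 300, 5 after merging and 6 with the longer peaks, where 10 were reported. These 30 values moved by the construction of the settings, and 42 others stayed within 1.5 times the reported value or, for shares, within its 95% exact binomial interval. Among them, the median position ranged from 21.5% to 34.4% of the span in every setting tried, including 5 added after the data were seen: genes of given strand only (24.7%), without genes with 3 or more runs (27.2%), midpoints in 1 gene only (28.3%), 1 value per gene (27.8%) and without chromosomes 1, 4, 5 and 11 (27.01%). The share of run peaks with an opposite-strand peak inside the run was 0 in every setting. No paired analysis was possible because the list has no value per library, and for that reason no library could be left out.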

Other observations

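Further genes with a run shared a known role outside the lists above; all were picked from the host genes after their values were seen, so no more than their presence is reported. In lipid synthesis, Msmo1 (14 peaks) and Hmgcs1 (13 peaks), which encode enzymes of cholesterol synthesis, each had a run whose middle lay 1.96 kb and 2.06 kb after the gene start. Scd2, a fatty acid desaturase gene, had one of 13 peaks 3.47 kb after its start. Srebf2, which encodes a regulator of cholesterol synthesis genes, had one of 10 peaks at 62.7% of its span, 12.9 kb before Mir33, the microRNA within it.

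Genes of the RNA modification N6-methyladenosine also had runs: Ythdf3, which encodes a reader protein (14 peaks), Wtap, which encodes a subunit of the writer complex (12 peaks), and Fto, which encodes a demethylase (10 peaks). Their runs lay at 41.4%, 55.7% and 77.6% of the span. Among genes for RNA-binding proteins of mRNA stability, Elavl1 had a run of 14 peaks at 64.6%, Upf1 one of 14 at 30.7% and Tia1 one of 13 at 60.9%.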
